A study of Mus musculus with 6 samples.

Results

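Genes of the glutathione and thioredoxin systems and of other antioxidant enzymes were followed in purified mouse cones with and without the clock gene Bmal1. The genes were taken by symbol, as those of the glutathione S-transferases, glutathione peroxidases, peroxiredoxins, thioredoxin and glutaredoxin families, superoxide dismutases, catalase, methionine sulfoxide reductases, glutathione synthesis, the NRF2 regulators with their classical effectors, and symbols that begin with Selen. This gave 47 of the 9720 protein-coding genes in the deposited table, and the rule uses no measured value. Both groups carried the transgenes HRGPcre, a Cre driven by a human red/green opsin promoter that is active in cones, and Z/EG, a reporter that switches on eGFP where Cre has acted. The 3 control libraries came from mice labelled HRGPcre;Bmal1f/+;Z/EG, so their cones keep 1 intact Bmal1 copy after recombination, although the series text calls them wild type. The 3 knockout libraries came from mice labelled HRGPcre;Bmal1f/f;Z/EG. All were adults of a mixed C57BL/6 background (labelled both postnatal day 60 to 80 and 2 to 6 months) kept on a 12 h light and 12 h dark cycle, and eGFP-positive cells were sorted from dissociated retinas. The sources used here give neither the hour of collection nor whether a library holds 1 animal or several. Each p therefore measures the spread between these libraries alone, which may be technical.

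Glutathione is a small thiol that is built by glutamate-cysteine ligase and glutathione synthetase. Peroxidases use it to reduce hydrogen peroxide and lipid peroxides, and transferases attach it to reactive aldehydes and other electrophiles. Thioredoxin and its reductase form a parallel thiol chain, fed by NADPH, that recharges the peroxiredoxins and the methionine sulfoxide reductases. Photoreceptors consume much oxygen and hold membranes rich in polyunsaturated lipids under light, so these enzymes are well known in retinal biology. The transcription factor NRF2, held in check by KEAP1, drives many of these genes through antioxidant response elements.

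The values are FPKM, read fragments scaled to transcript length and to library size, which allow levels to be compared between genes. Read depth is unknown. FPKM sums over the table ran from 84995 to 128773 per library, and control 3 had 10.03% of its sum in the gene model Gm17364. Control 1 correlated least with the other libraries across genes (mean r = 0.899, against 0.929 to 0.945) and held the lowest value of 39.2% of tested genes. Cone markers were high in all libraries, with 12 of 12 in the table and summed levels of 4126 to 6945 FPKM in the controls, against 5548 to 6696 FPKM in the knockouts. Arntl, the gene for BMAL1, read 3.0, 2.60 and 3.27 FPKM in the controls, against 3.37, 2.28 and 3.48 FPKM in the knockouts. Its whole-gene value, with no floxed part named in the labels, does not check the genotype. Nr1d1, a BMAL1 target gene, and Cplx3, which the series title names as a clock target, did separate the groups. Nr1d1 averaged 47.2 ± 8.98 FPKM in control against 4.13 ± 1.11 FPKM, and Cplx3 averaged 21.4 ± 3.14 against 4.82 ± 0.81 FPKM (SD, n = 3 per group, adjusted p = 0.00013 and 0.0018, limma). In sorted bulk RNA, fewer cells of a type and less RNA per cell cannot be told apart.

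Antioxidant transcripts were mostly of moderate level. The median gene had a mean of 4.04 FPKM over the 6 libraries, against 3.80 FPKM for the whole table. Means above 20 FPKM belonged to 3 genes, Prdx2, Sod1 and Gpx4, and 30 genes were below 5 FPKM. The 47 genes together summed to 275, 372 and 367 FPKM in controls 1 to 3, against to 248, 254 and 287 FPKM in knockouts 1 to 3, so the groups overlapped through control 1. As a share of the table's FPKM, the sum was 0.323%, 0.348% and 0.285% in control and 0.243%, 0.249% and 0.268% in knockout, with no overlap. Such sums mainly reflect the most abundant genes. Prdx2, Sod1 and Gpx4 averaged 44.9, 41.8 and 36.9 FPKM in the controls, against 29.8, 30.1 and 20.8 FPKM in the knockouts. How often the sums of other gene sets separate was not tested. Gsr, Txnrd1, Prdx5, Txnip, Nqo1 and Hmox1 have no row in the table and were not analysed here.

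None of the 40 antioxidant genes tested passed the threshold of an adjusted p of 0.05 over all 8627 tested genes (limma), where 0.104% of all genes passed. The other 7 had a mean below 1 FPKM and were not tested. At an unadjusted p under 0.05, 5 genes had lower values in the knockout (3.96% of all tested genes did), and 1 had higher values (1.53% of all). The lower ones were Gsta4, Gpx4, Gstp1, Gpx1 and Msrb1, and the higher one was Txnrd2. Leaving out single libraries moved that count from 6 to 11 without control 1, to 2 without knockout 1, and to 3 without control 3 or without knockout 2. Shares of all tested genes at that p are not given for these fits, so the counts describe sensitivity only. Without control 1 the whole table moved too, with 64.8% of all tested genes negative, beside 52.6% with all libraries. The range of the knockout libraries lay wholly below that of the controls for 7 of the 40 genes, against 5.87% of all tested genes. It lay wholly above for 1, against 3.52%. That 1 gene was again Txnrd2, which reached the filter of a mean of 1 FPKM only through its knockout values. The log2 difference was negative for 30 of the 40, against 52.6% of all tested genes. The median log2 difference was -0.15, beside -0.02 over all tested genes. Negative values numbered 27, 27 and 28 under sum, median-ratio and quantile scaling, beside 48.9%, 49.1% and 46.8% of all tested genes. These log2 differences are on the scale of log2(FPKM + 1), knockout minus control, which understates changes near 1 FPKM.

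**Figure D1:**
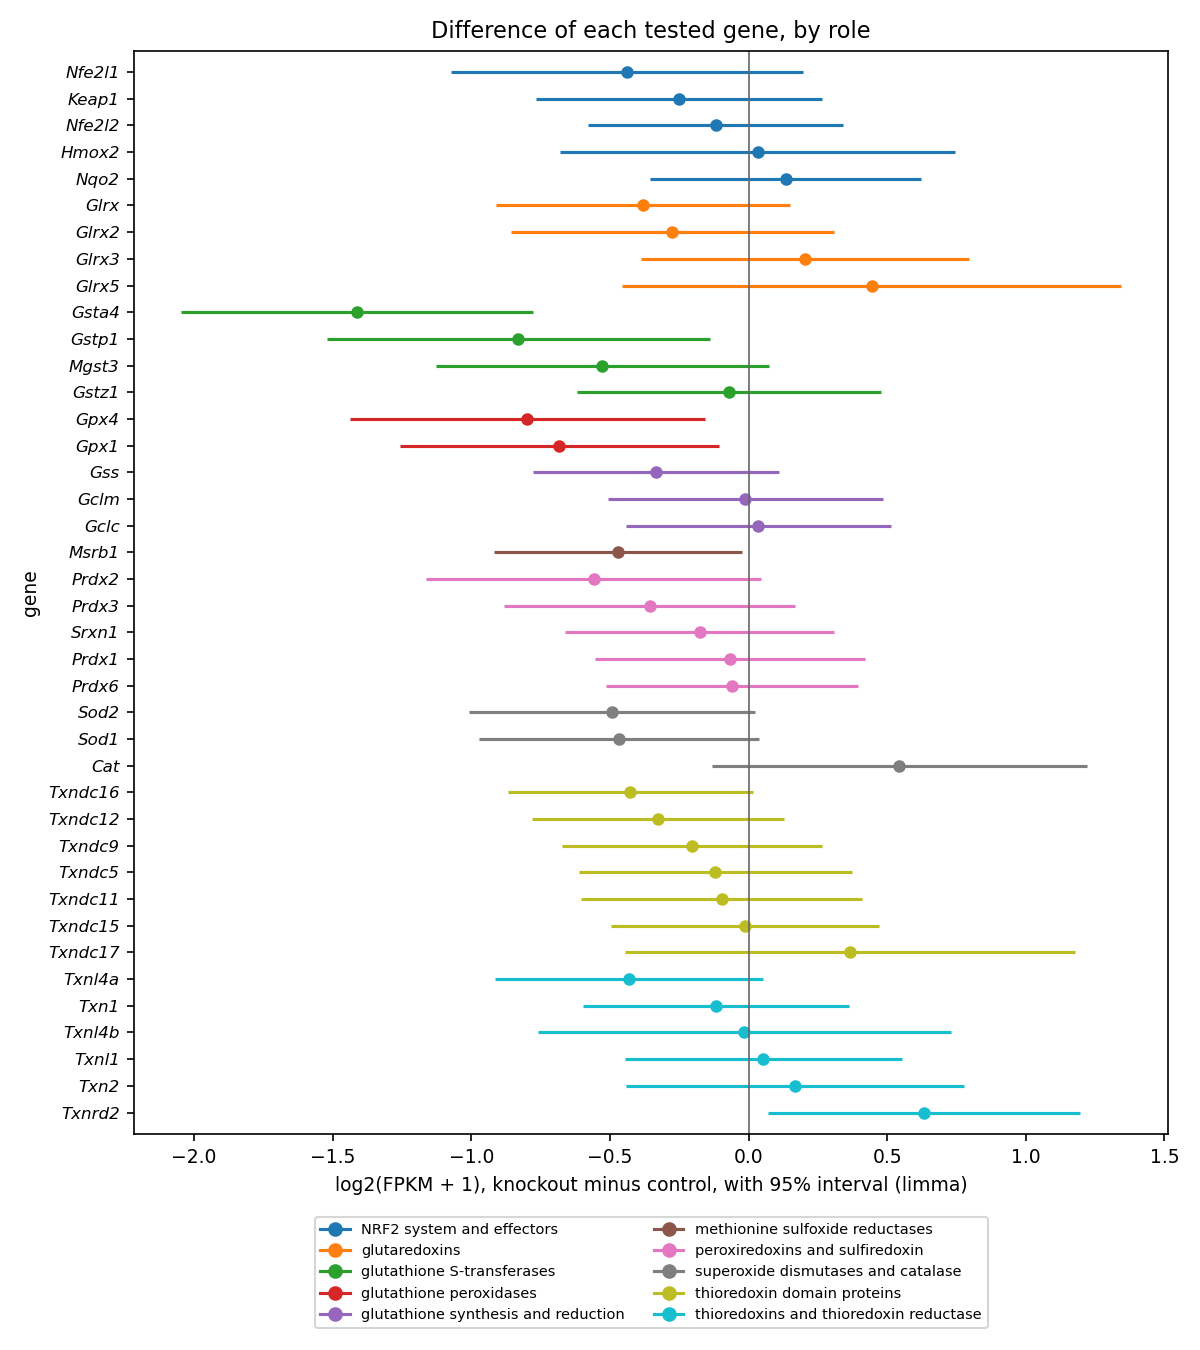
Log2 difference (knockout minus control, on log2(FPKM + 1)) of each of the 40 tested genes, coloured by role, with the 95% interval from limma as a bar. Most points lie left of 0 and most intervals cross it, Gsta4 lies farthest to the left at -1.41, and Txnrd2 and Cat lie farthest to the right at 0.63 and 0.54.

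The glutathione S-transferases held the gene with the widest separation. Gsta4 encodes an alpha-class transferase that conjugates 4-hydroxynonenal, an aldehyde made when lipids are oxidised. It occupies chr9:78182774-78209349, plus strand, on GRCm38. Gsta4 read 2.50, 5.65 and 7.13 FPKM in controls 1 to 3, against 1.02, 1.08 and 1.39 FPKM in knockouts 1 to 3. Every control lay above every knockout, and control 1 was the control nearest to them. Its mean was 5.09 ± 2.37 FPKM in the controls, against 1.16 ± 0.20 FPKM in the knockouts, a knockout to control ratio of 0.228. This gave a log2 difference of -1.41 ± 0.29 (SE; 95% interval from -2.05 to -0.78), which did not pass (adjusted p = 0.20, limma). Without control 1 the log2 difference of Gsta4 was -1.77 and it passed (adjusted p = 0.0011, limma), as it did with array weights (adjusted p = 0.0025, limma). Over all alternatives run, the adjusted p of Gsta4 ranged from 0.0011 to 0.73.

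Gstp1, a pi-class transferase that also binds stress kinases, read 4.77, 2.68 and 3.98 FPKM in the controls, against 0.857, 1.24 and 3.52 FPKM in the knockouts. Knockout 3 lay within the control range, and knockouts 1 and 2 lay below it. For Gstp1 the log2 difference was -0.83 ± 0.32 (adjusted p = 0.84, limma). Of the 50-base stretches in its longest coding transcript, 62.3% also occur in transcripts of other genes, chiefly its neighbour Gstp2, so its level is uncertain. Mgst3, a microsomal transferase and peroxidase of membranes, read 3.79, 7.84 and 6.66 FPKM in the controls, against 2.71, 5.09 and 3.80 FPKM in the knockouts. The groups overlapped (log2 difference -0.53, adjusted p = 0.91, limma). Gstz1, which isomerises maleylacetoacetate in tyrosine breakdown, was the most abundant transferase, with 9.21 ± 2.83 and 8.52 ± 1.31 FPKM. The log2 difference of Gstz1 was -0.07 (95% interval from -0.62 to 0.48).

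Of the low transferases, 3 were below the filter and were not tested. Gstm5, a mu-class enzyme, read 1.01, 1.13 and 0.995 FPKM in the controls, against 0.10, 0.50 and 0.493 FPKM in the knockouts, where 0.1 FPKM is the floor of the table. Its 2 groups did not overlap. Gstt2, a theta-class enzyme, read 0.200, 1.56 and 0.440 FPKM in the controls, against 0.10, 0.206 and 0.316 FPKM in the knockouts, with overlap. Gsta3 had nearly equal means of 0.752 and 0.760 FPKM.

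The selenocysteine enzymes among these genes were Gpx1, Gpx4, Msrb1 and Txnrd2. In each of them an in-frame TGA codon, read elsewhere as a stop, is decoded as selenocysteine. The coding sequence around that codon is shown for the 4 genes because they were 4 of the 6 genes at an unadjusted p under 0.05. They were grouped on account of that p, so their number is no result about selenoproteins. Of all tested genes, 3.96% were lower and 1.53% higher at that p, shares that do not gauge a group picked in this way. Gpx1, Gpx4 and Msrb1 were lower in the knockout and Txnrd2 was higher. None of the 7 further selenoprotein genes given below was under that p. Each line gives GENCODE vM21 transcript sequence with the selenocysteine codon in capitals.
Gpx1: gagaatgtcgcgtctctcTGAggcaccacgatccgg
Gpx4: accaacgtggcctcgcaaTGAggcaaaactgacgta
Msrb1: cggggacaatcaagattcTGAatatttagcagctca
Txnrd2: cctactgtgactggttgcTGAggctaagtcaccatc
The codons lie at chr9:108339451-108339453 in exon 1 of Gpx1, chr10:80054737-80054739 in exon 3 of Gpx4, chr17:24740158-24740160 in exon 3 of Msrb1 and chr16:18477772-18477774 in exon 17 of Txnrd2, all on the plus strand of GRCm38. In Txnrd2 a single glycine codon stands between the selenocysteine codon and the stop, while the other 3 carry it inside the protein.

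Both tested glutathione peroxidases had lower means in the knockout. Gpx4, which reduces lipid hydroperoxides within membranes and guards cells against ferroptosis, was the most abundant peroxidase of the glutathione family. The libraries had 25.9, 48.5 and 36.4 FPKM in the controls, against 14.8, 19.6 and 28.1 FPKM in the knockouts. Control 1 and knockout 3 overlapped, and the other values were apart. The log2 difference of Gpx4 was -0.80 ± 0.29 (adjusted p = 0.81, limma), and 61.7% of its 50-base stretches also occur in transcripts of other genes, chiefly the pseudogene Gpx4-ps2. Gpx1, the cytosolic and mitochondrial peroxidase, read 10.3, 9.02 and 8.59 FPKM in the controls, against 4.04, 4.43 and 8.61 FPKM in the knockouts. Knockouts 1 and 2 were near 4 FPKM, whereas knockout 3 was at the level of control 3. Gpx1 had a log2 difference of -0.68 ± 0.26 (adjusted p = 0.86, limma). Gpx7, an endoplasmic reticulum member without selenocysteine, was below the filter, at 0.896 ± 0.505 and 0.524 ± 0.253 FPKM.

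Msrb1 encodes the selenium-dependent methionine sulfoxide reductase, which repairs oxidised methionine. Msrb1 read 6.68, 5.12 and 5.65 FPKM in the controls, against 3.89, 3.74 and 4.06 FPKM in the knockouts. All knockouts lay below all controls, with little spread among the knockouts. The log2 difference was -0.47 ± 0.21 (adjusted p = 0.90, limma). Msra, which repairs the other stereoisomer, was below the filter and read 0.125 FPKM in control 1, against 0.423 to 1.33 FPKM in the other 5 libraries.

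Txnrd2 encodes the mitochondrial thioredoxin reductase and was the 1 gene with wholly higher knockout values. The libraries had 0.10, 0.782 and 0.890 FPKM in control, the first being the floor, and 1.09, 1.89 and 1.29 FPKM in the knockouts. The log2 difference of Txnrd2 was 0.63 ± 0.26 (adjusted p = 0.90, limma), and without control 1 it was 0.39 (unadjusted p = 0.098, limma). Its mean over the 6 libraries was 1.01 FPKM, with 0.591 FPKM in the controls and 1.42 FPKM in the knockouts. Txnrd2 thus reached the filter of 1 FPKM only through its knockout values, and its place among the higher genes depends on that.

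**Figure D2:**
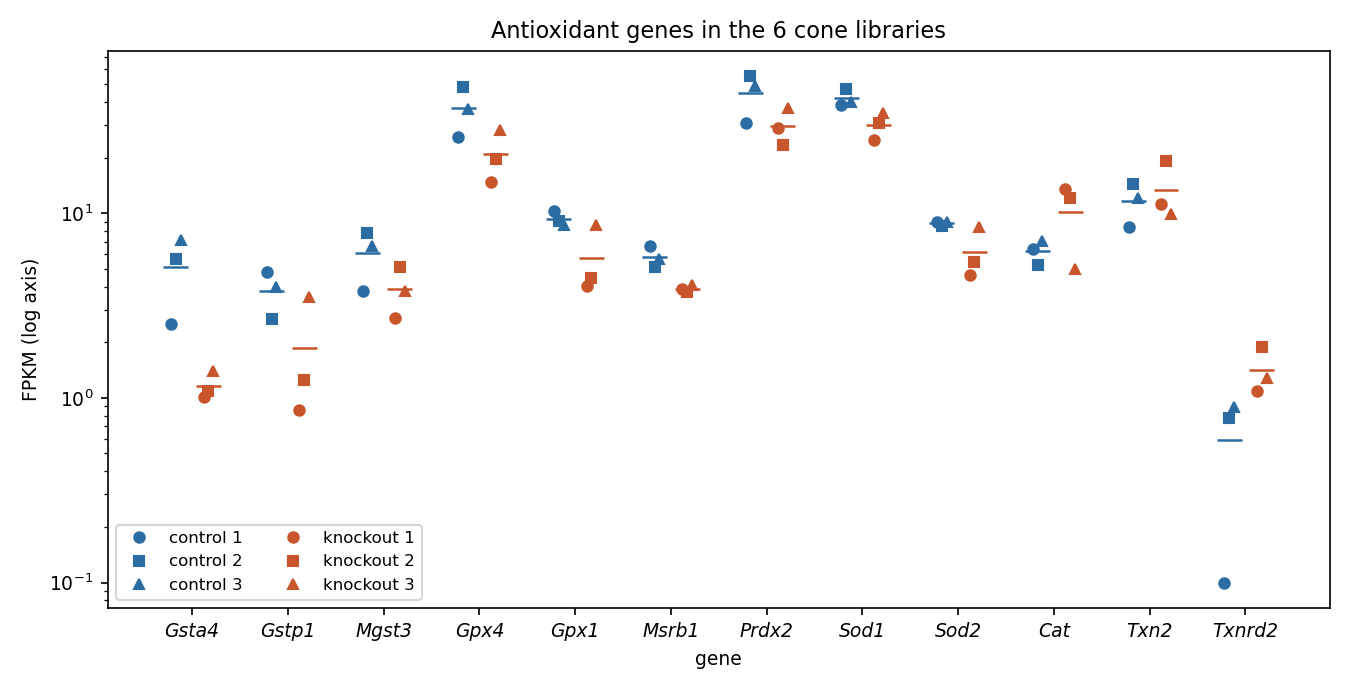
FPKM of 12 antioxidant genes in each library on a log axis, with circles, squares and triangles for replicates 1, 2 and 3 and a line at each group mean. Gsta4, Msrb1, Sod1 and Sod2 have all knockouts below all controls, and Txnrd2 has all knockouts above. In Gstp1, Gpx1, Sod2 and Cat the triangle of knockout 3 sits beside the controls.

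Further selenoprotein genes stand in the table under other symbols than the ones the family names give (Vimp, Selt, Selk, Sepw1, Sepn1 and Selo, and Selenof, whose symbol a spreadsheet had stored as a date). These 7 were looked up after the values were seen, and none passed. At an unadjusted p under 0.05 there was also none, with 3 positive and 4 negative differences. Selt, a thioredoxin-like protein of the endoplasmic reticulum, was the most abundant of them, at 29.4 ± 4.23 and 35.9 ± 4.17 FPKM. Selenof, a folding factor of the same compartment, measured 15.3 ± 2.82 and 14.9 ± 1.43 FPKM. Sepw1, a small selenoprotein with a thioredoxin-like fold, measured 8.76 ± 3.65 and 6.67 ± 4.08 FPKM. Selenbp1, a selenium-binding thiol oxidase that holds no selenocysteine, was the only gene whose symbol, as deposited, begins with Selen. It was below the filter, at 0.217, 0.770 and 2.28 FPKM in the controls, against 0.311, 0.296 and 0.408 FPKM in the knockouts.

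Superoxide dismutases turn superoxide into hydrogen peroxide, and catalase breaks that down in peroxisomes. Sod1, the cytosolic copper-zinc enzyme, read 38.7, 46.8 and 40.0 FPKM in the controls, against 24.8, 30.9 and 34.7 FPKM in the knockouts. Sod2, the mitochondrial manganese enzyme, read 9.0, 8.54 and 8.95 FPKM in the controls, against 4.61, 5.44 and 8.45 FPKM in the knockouts. Of the 50-base stretches of Sod1, 23.1% also occur in transcripts of other genes. In both genes the groups were apart, by less than the distance of the knockouts from one another. Log2 differences were -0.47 ± 0.23 for Sod1 and -0.49 ± 0.24 for Sod2 (adjusted p = 0.90 each, limma). Cat, the catalase gene, read 6.38, 5.21 and 7.04 FPKM in the controls, against 13.5, 12.1 and 5.01 FPKM in the knockouts. Knockouts 1 and 2 were above every control, while knockout 3 was the lowest library of all. The log2 difference of Cat was 0.54 ± 0.31 (adjusted p = 0.91, limma), and without knockout 3 it was 0.94 (adjusted p = 0.34, limma). Without knockout 1 it was 0.31, and without knockout 2 it was 0.38.

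Peroxiredoxins are abundant thiol peroxidases, and all 5 tested genes of this group, sulfiredoxin included, had negative differences, beside 52.6% of all tested genes. Prdx2, a cytosolic member, was the most abundant gene of the whole set in control. It read 30.9, 55.3 and 48.6 FPKM in the controls, against 29.0, 23.4 and 37.1 FPKM in the knockouts, with overlap between control 1 and knockout 3. The log2 difference of Prdx2 was -0.56 ± 0.28 (adjusted p = 0.90, limma). Prdx3, the mitochondrial member, measured 4.68 ± 1.33 and 3.39 ± 0.67 FPKM, with a log2 difference of -0.36 that ran from -0.55 to -0.20 as each library was left out. Prdx1 measured 4.69 ± 1.19 and 4.34 ± 0.12 FPKM, and its log2 difference was -0.07. Prdx6, Srxn1 and Prdx1 lay within 0.18 log2 units of 0. Prdx4, the endoplasmic reticulum member, was below the filter, at 1.05 ± 0.53 and 0.542 ± 0.187 FPKM.

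Both thioredoxins overlapped between the groups. Txn1, the cytosolic thioredoxin, measured 6.32 ± 0.93 and 5.77 ± 1.04 FPKM (log2 difference -0.12, 95% interval from -0.60 to 0.36). Txn2, its mitochondrial counterpart and substrate of Txnrd2, read 8.46, 14.3 and 12.0 FPKM in the controls, against 11.2, 19.1 and 9.91 FPKM in the knockouts. Knockout 2 was the highest library, and the log2 difference of Txn2 was 0.17 ± 0.28. Txnl1, a thioredoxin-like protein of the proteasome, measured 6.95 ± 1.57 and 7.17 ± 0.92 FPKM. Txnl4a is a spliceosome subunit with a thioredoxin fold rather than an antioxidant enzyme. It measured 3.72 ± 0.71 and 2.50 ± 0.53 FPKM, with a log2 difference of -0.43 (adjusted p = 0.90, limma). Txnl4b, its paralog, read 0.166 FPKM in control 1 and 0.621 to 2.1 FPKM in the other libraries.

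Of 7 thioredoxin domain genes, several of whose products fold proteins in the endoplasmic reticulum, 6 had negative differences, beside 52.6% of all tested genes. In 2 the knockouts lay wholly below the controls, beside 5.87% of all tested genes. Txndc16 read 5.86, 4.89 and 5.65 FPKM in the controls, against 3.63, 3.67 and 4.13 FPKM in the knockouts. Txndc12 read 6.50, 5.82 and 6.65 FPKM in the controls, against 5.02, 4.06 and 5.52 FPKM in the knockouts. In both genes every knockout lay below every control, with log2 differences of -0.43 and -0.33 (adjusted p = 0.90 and 0.93, limma). Txndc5, a protein disulfide isomerase and the most abundant of these, measured 11.2 ± 2.21 and 10.2 ± 1.23 FPKM. Txndc15 measured 8.59 ± 1.43 and 8.49 ± 1.18 FPKM, with a log2 difference of -0.01 that turned positive under sum, median-ratio and quantile scaling. Txndc17 read 0.524 FPKM in control 1 against 3.09 to 3.80 FPKM elsewhere.

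Among glutaredoxins, which reduce glutathionylated proteins or carry iron-sulfur clusters, 2 differences were negative and 2 positive. Glrx2, which acts in mitochondria, was the most abundant, at 12.8 ± 3.69 and 10.3 ± 2.52 FPKM. Glrx, the cytosolic form, measured 3.71 ± 1.2 and 2.59 ± 0.66 FPKM. Glrx3, which acts in cytosolic iron handling, measured 4.02 ± 1.95 and 4.5 ± 0.19 FPKM, and its log2 difference of 0.20 turned to -0.11 with array weights. Glrx5, a mitochondrial iron-sulfur cluster protein, read 0.167 FPKM in control 1 and 2.42 to 3.66 FPKM in the other 5 libraries. Its log2 difference of 0.44 became -0.18 without control 1. No glutaredoxin had groups apart.

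Of the 3 genes of glutathione synthesis, 2 had log2 differences within 0.04 of 0. Gclc and Gclm encode the catalytic and modifier subunits of glutamate-cysteine ligase, the rate-limiting enzyme. Gclc measured 3.92 ± 0.83 and 4.01 ± 0.51 FPKM (log2 difference 0.04, 95% interval from -0.44 to 0.51). Gclm measured 2.19 ± 0.64 and 2.14 ± 0.43 FPKM (log2 difference -0.01, 95% interval from -0.51 to 0.48). Gss, the glutathione synthetase gene, read 3.10, 3.45 and 4.04 FPKM in the controls, against 2.60, 2.56 and 2.57 FPKM in the knockouts. The Gss groups did not overlap, and its log2 difference was -0.33 ± 0.20 (adjusted p = 0.93, limma). Exons of Gss and Acss2 overlap by 395 bases on opposite strands, and use of strand in the counting is not stated in the labels.

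The regulators did not separate the groups. Nfe2l2, the gene for NRF2, read 9.07, 6.71 and 8.19 FPKM in the controls, against 7.63, 7.17 and 6.89 FPKM in the knockouts (log2 difference -0.12, 95% interval from -0.58 to 0.34). Nfe2l1 encodes the related factor NRF1, which governs proteasome genes. It read 10.6, 14.6 and 24.0 FPKM in the controls, against 9.76, 9.83 and 14.6 FPKM in the knockouts, with control 3 far above the rest. Keap1, the gene for the NRF2 inhibitor, measured 2.38 ± 0.80 and 1.79 ± 0.23 FPKM. Hmox2, the constitutive heme oxygenase gene, measured 5.17 ± 2.61 and 4.96 ± 1.30 FPKM. Nqo2, a quinone reductase gene, measured 1.51 ± 0.38 and 1.76 ± 0.40 FPKM. In all 5 the groups overlapped, and no adjusted p was below 0.93 (limma).

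**Figure D3:**
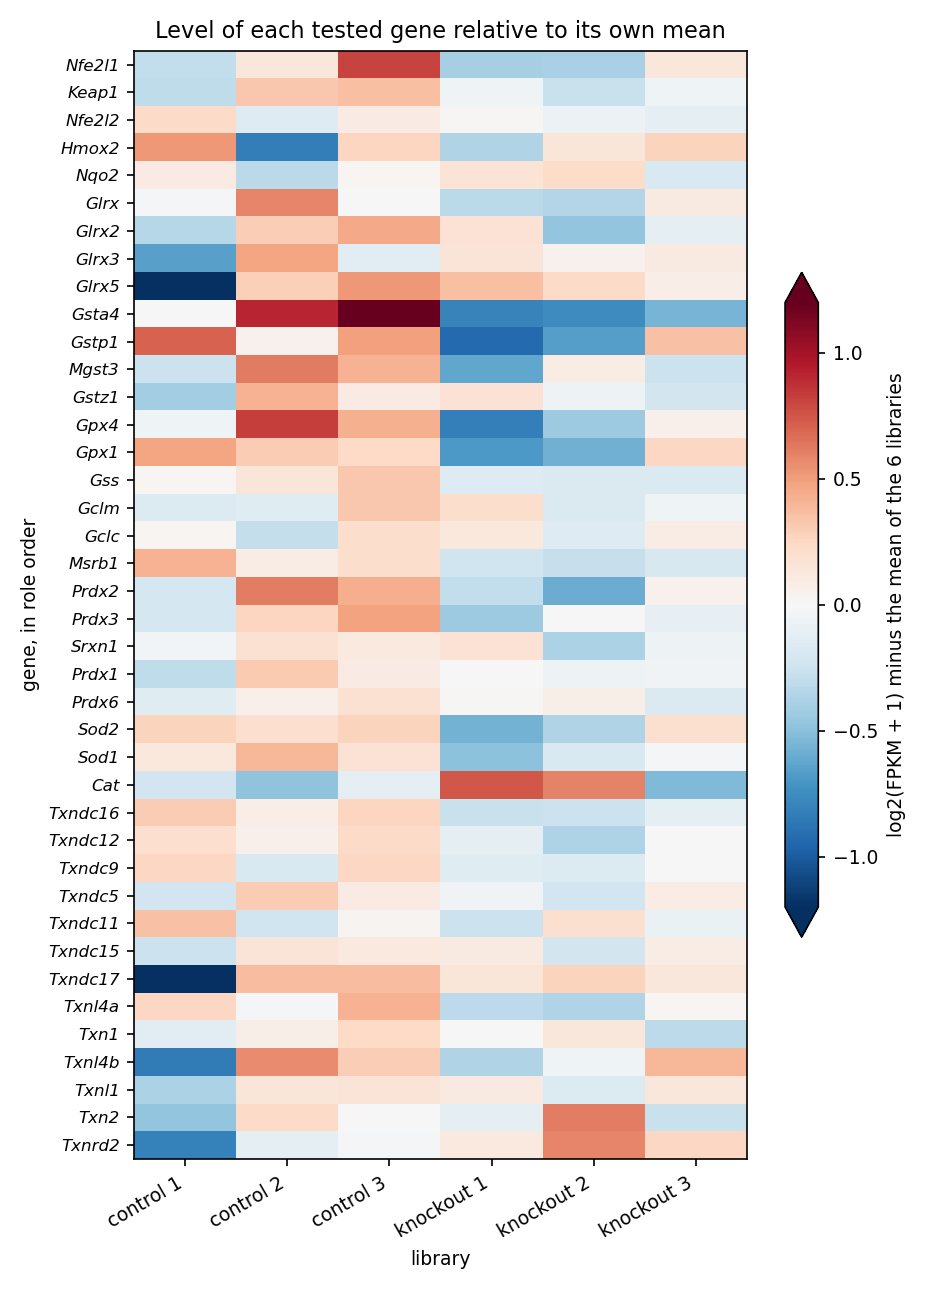
Level of each tested gene in each library as log2(FPKM + 1) minus the gene's own mean over the 6 libraries, with red above and blue below that mean and genes in role order. Gsta4, Gpx4, Gpx1 and Sod2 are blue in knockouts 1 and 2 and Cat is red there, knockout 3 is paler or of the other colour, and control 1 is darkest blue for Glrx5 and Txndc17.

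Promoter sequence was available for 40 of the 47 genes (RefSeq, GRCm38.p6, from 250 bases before to 50 after each start). The core antioxidant response element was searched as TGACNNNGC, and the E-box bound by CLOCK and BMAL1 as CACGTG, each on both strands. The element TGACNNNGC stood in 22.5% of these 40 genes and in 14% of the 27025 genes of the RefSeq table, or 16.9% of the genes of the deposited table that matched. Matches are shown for Gclm, Prdx1, Gstm5, Gsta3 and Nfe2l2, which include targets that NRF2 is known to drive, with the motif in capitals.
Gclm: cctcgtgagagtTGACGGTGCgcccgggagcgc
Prdx1: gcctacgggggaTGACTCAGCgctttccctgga
Gstm5: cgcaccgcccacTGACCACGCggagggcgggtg
Gsta3: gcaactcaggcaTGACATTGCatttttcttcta
Nfe2l2: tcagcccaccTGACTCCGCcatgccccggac
On GRCm38.p6 they lie at chr3:122245411-122245443 (minus strand) for Gclm, chr4:116685454-116685486 (minus) for Prdx1, chr3:107895800-107895832 (plus) for Gstm5, chr1:21240452-21240484 (plus) for Gsta3 and chr2:75704883-75704913 (minus) for Nfe2l2. Sod1, Srxn1, Txndc11 and Txndc5 hold the element too. Over the 7 tested genes with it, the log2 difference ran from -0.47 for Sod1 to -0.01 for Gclm. Of these 7, only Sod1 had groups apart, with the knockouts lower, beside 5.87% of all tested genes. The untested Gstm5, with knockout 1 at the floor, also had groups apart and is not covered by that share.

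The E-box CACGTG stood in 10% of the 40 genes, beside 8.09% of the genes of the RefSeq table and 12.2% of the matched genes of the deposited table. The 4 genes that hold it are shown because BMAL1 is the deleted factor.
Glrx2: gaaagcgctggtCACGTGatgttaaccatt
Prdx4: ggagcttgcgccCACGTGgcggaggggcgg
Txndc5: gagcccggcgtcCACGTGccctatcct
Txndc9: cggccattagccCACGTGaagcgtaggctc
They lie at chr1:143740238-143740267 (plus strand) for Glrx2, chrX:155338495-155338524 (minus) for Prdx4, chr13:38527865-38527891 (minus) for Txndc5 and chr1:37997348-37997377 (minus) for Txndc9. The tested genes with this motif were Glrx2, Txndc5 and Txndc9. None of them was at an unadjusted p under 0.05, where 3.96% of all tested genes were lower and 1.53% higher. So few genes do not allow a comparison with those shares. Gsta4 has no entry in the promoter table. A match describes letters in a window and says nothing of binding.

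Around these enzymes, 6 lists of partner genes were examined, with 87 tested genes of 132 listed. None passed over all genes in limma, and at an unadjusted p under 0.05 there were 5 lower and 1 higher, beside 3.96% and 1.53% of all tested genes. Of 15 genes that supply NADPH, 8 were negative and none was under that p. Me1, the malic enzyme gene and the most abundant of them, measured 20.5 ± 4.11 and 22.4 ± 2.87 FPKM, and Taldo1, a pentose phosphate gene, measured 8.55 ± 1.37 and 6.09 ± 0.64 FPKM. Idh1, the cytosolic isocitrate dehydrogenase gene, measured 4.92 ± 0.88 and 3.68 ± 0.5 FPKM, and Mthfd1, a folate enzyme gene, measured 1.47 ± 0.4 and 1.02 ± 0.15 FPKM. Of 13 genes of glutathione supply, turnover and the glyoxalase route, 7 were negative. Hagh, the glyoxalase II gene that releases glutathione from lactoylglutathione, read 11.7, 9.86 and 10.9 FPKM in the controls, against 6.57, 5.51 and 7.12 FPKM in the knockouts. The Hagh groups were apart (log2 difference -0.68, adjusted p = 0.65, limma), with knockouts lower, beside 5.87% of all tested genes. Glo1, the glyoxalase I gene of the preceding step, measured 32.4 ± 7.22 and 28.4 ± 1.85 FPKM. The mitochondrial carriers Slc25a39, which imports glutathione, and Slc25a40 measured 1.67 ± 0.45 and 1.14 ± 0.92 FPKM, and 1.7 ± 0.29 and 2.07 ± 0.36 FPKM.

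Of 17 tested genes around NRF2 (partners, control and further targets), 9 were negative. Ftl1, the ferritin light chain gene, read 8.41, 7.54 and 9.25 FPKM in the controls, against 3.05, 3.88 and 5.70 FPKM in the knockouts, with the groups apart (log2 difference -0.88 ± 0.24, adjusted p = 0.46, limma). Fth1, the ferritin heavy chain gene, was far more abundant, at 214 ± 53.1 and 183 ± 41.3 FPKM. Nfe2l3, another CNC factor, measured 1.92 ± 0.34 and 3.17 ± 0.37 FPKM, with the knockouts wholly above the controls (adjusted p = 0.90, limma). Of all tested genes, 5.87% had knockouts wholly below the controls and 3.52% wholly above. Sqstm1, the autophagy adaptor gene that competes for KEAP1, measured 7.40 ± 1.14 and 4.77 ± 2.01 FPKM. Of 10 selenoprotein synthesis genes, 5 were negative. Secisbp2, which binds the element that recodes TGA, measured 4.78 ± 1.36 and 5.68 ± 0.37 FPKM, and Lrp8, a receptor for selenoprotein P, measured 1.66 ± 0.67 and 0.736 ± 0.336 FPKM. Trnau1ap, which acts with the selenocysteine tRNA, measured 12.4 ± 1.82 and 10.2 ± 1.85 FPKM. Of 16 other thiol oxidoreductases, 8 were negative. The most abundant was Nxnl2, a thioredoxin-like gene that makes a cone viability factor, at 25.7 ± 7.01 and 22.9 ± 5.69 FPKM. Tmx2, Pdia3 and Pdia6, of the endoplasmic reticulum, had mean values of 11.1, 15.6 and 5.89 FPKM in the controls, against 8.08, 12.3 and 4.82 FPKM in the knockouts. Of 16 other redox genes, 10 were negative, among them Sesn2, a sestrin gene, at 2.12 ± 0.48 and 1.16 ± 0.18 FPKM, and Atox1, a copper chaperone gene, at 3.75 ± 0.95 and 2.46 ± 1.01 FPKM. The metallothionein gene Mt1 was by far the most abundant of these, at 564 ± 183 and 369 ± 126 FPKM.

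**Figure D4:**
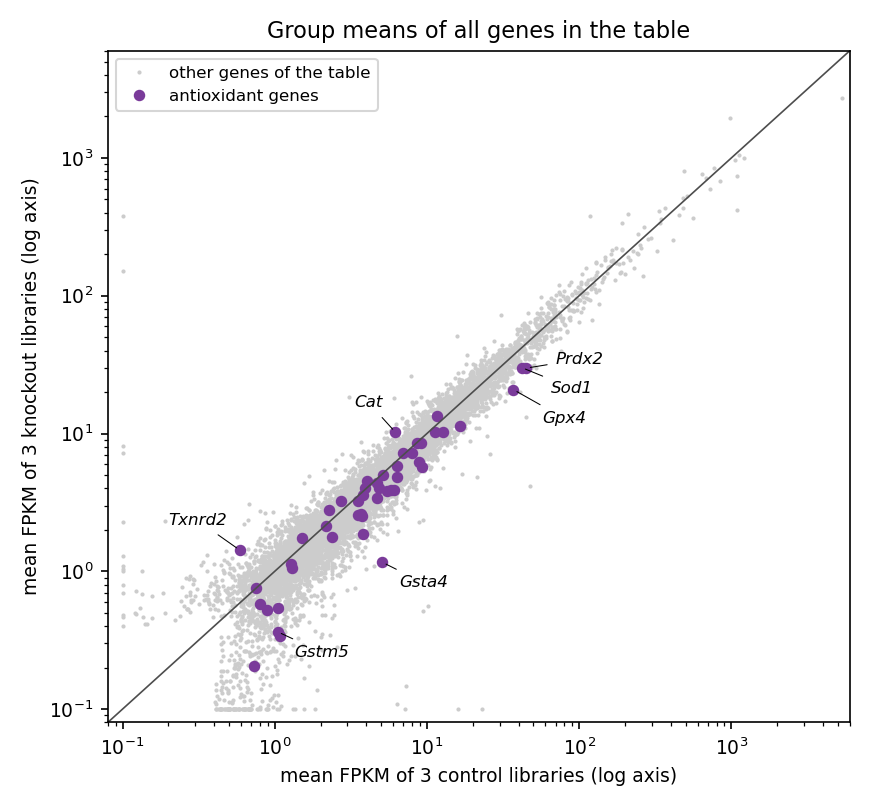
Mean FPKM of the 3 knockout libraries against that of the 3 control libraries for all 9720 genes, both on log axes, with the 47 antioxidant genes in purple and a line of equal means. Gsta4, at 5.09 and 1.16 FPKM, lies apart below the line, Cat and Txnrd2 lie above it, and Sod1, Prdx2 and Gpx4 are the most abundant of the set.

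Other retinal cells also express antioxidant genes, so their markers are given beside these results. Of the 12 cone markers, 8 had negative and 4 positive differences, and Gngt2, a transducin subunit gene, measured 1211 ± 489 and 1002 ± 162 FPKM. Opn1sw, the short-wavelength opsin gene, ran from 735 to 1202 FPKM in control and from 1774 to 2091 FPKM in the knockouts (adjusted p = 0.65, limma). Müller glia markers, 9 of 16 in the table with Slc1a3, Aqp4 and Kcnj10 not among them, summed to 95.1 to 123 FPKM in the controls, against 106 to 115 FPKM in the knockouts. Of 8 tested, 4 were positive and 4 negative. Car2, the most abundant, measured 54.3 ± 10.6 and 60.8 ± 6.67 FPKM, and Clu, the clusterin gene, measured 26.0 ± 1.17 and 18.6 ± 2.97 FPKM. Rod markers, 15 of 15 in the table, summed to 3095 to 3806 FPKM in the controls, against 2654 to 3740 FPKM in the knockouts. Of these 15, 10 had positive and 5 negative differences, with a median log2 difference of 0.14. Amacrine markers, 2 of 9 in the table, summed to 8.98 to 11.2 FPKM and 5.01 to 8.15 FPKM, and Gad1 and Gad2 are not among them. Ganglion cell markers had 4 of 10 in the table. They summed to 24.8, 4.19 and 3.59 FPKM in controls 1 to 3, against 2.66 to 3.30 FPKM in the knockouts. Among them, Stmn2 read 21.1 FPKM in control 1 and at most 0.668 FPKM elsewhere. Nefl went the other way, at 0.890 FPKM in control 1 against 2.21 and 1.16 FPKM in controls 2 and 3. Bipolar markers, 9 of 12 in the table, summed to 87.1 to 124 FPKM in control and to 97.7 to 110 FPKM in the knockouts. Horizontal cell and pigment epithelium markers had no row, and vascular, microglial and red blood cell markers had 1 of 8, 3 of 10 and 1 of 5. Those present were Pecam1 of vessels, at 0.593 to 0.812 FPKM in control and 1.23 to 1.3 FPKM in the knockouts, Alas2 of red blood cells, at 1.48 to 2.93 and 3.06 to 5.29 FPKM, and the microglial genes, with sums of 2.94 to 3.36 and 1.56 to 3.67 FPKM. The part of these cells in the antioxidant values was not tested.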

How the data were processed

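Poly(A) RNA of sorted cones (100 ng per library) was sequenced with a directional kit, as the protocols in the labels state. FPKM values, made by the authors and deposited as 1 table, have a floor of 0.1, and every gene exceeds 1 FPKM in a library. TopHat2 2.1.0, Cufflinks 2.2.1, HTSeq, DESeq2 and mm10 are named, without roles, per the submitters' processing notes. Which tool made the values, the annotation and strand use were not given in the sources used here, and depth is unknown. In 15 rows a spreadsheet had turned the symbol into a date, and the symbol was restored from the gene ID.

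The 8627 genes whose 6 libraries averaged 1 FPKM or more were compared as log2(FPKM + 1) with limma 3.58.1 in R 4.3.3 (trended eBayes, two-sided, Benjamini-Hochberg over all tested genes), which was tested on simulated data. Named genes were those with an unadjusted p under 0.05, those below the filter or at the floor, and the 2 of smallest p and 2 most abundant per role, and from partner lists the 3 of smallest p and the most abundant. Other members, and the further selenoprotein genes, were named after their values were seen; of the other cell types' markers the 2 most abundant were tested but are given mostly as sums, and some are not reported here. The genes and lists were chosen with earlier results of these data known. Positions, exon overlaps and 50-base stretches shared with other genes come from GENCODE vM21 (GRCm38, the assembly of mm10), in which all 47 gene IDs matched, 28 with the same version.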

Additional observations from a re-analysis of the deposited data

How the results depend on the processing

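Over 16 alternatives (pseudocount, filter, scaling, variance model, array weights, replicate block, each library left out), Gsta4 was the only antioxidant gene that passed, with array weights and without control 1. Genes called over the table numbered 9 (4 higher, 5 lower), 23 with array weights (11 higher, 12 lower), and 6 higher with 5 lower after sum scaling. Antioxidant genes called were 0, and 1 with array weights. Those at an unadjusted p under 0.05 were 6, 11 with array weights and 2 with the 5 FPKM filter. That filter left 13 negative differences of 17, beside 47.8% of the 4008 genes tested with it. With each library left out, calls over the table ran from 6 to 13 (1 to 5 higher, 5 to 8 lower), antioxidant calls from 0 to 1, those at an unadjusted p under 0.05 from 2 to 11 (11 without control 1, 2 without knockout 1, 3 without control 3 or knockout 2), and negative differences from 26 to 34. Over all tested genes the share of negative differences was 64.8% without control 1 and 40.3% without control 3. Shares of all tested genes at an unadjusted p under 0.05 are not given for these alternatives, so the antioxidant counts at that p describe sensitivity only.

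The replicate block left 1 higher call over the table and no antioxidant call (Gsta4 log2 difference -1.41, adjusted p = 0.23, limma). Same-numbered libraries did not deviate together (r = -0.118, -0.085 and -0.034), so the numbers were not taken as pairs.

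Leaving out 1 library moved the log2 difference of 28 of the 40 tested antioxidant genes by over 1.5 times in at least 1 fit, and 16 of them changed sign. The 12 others were Gpx1, Gpx4, Gss, Gsta4, Gstp1, Msrb1, Prdx2, Sod1, Sod2, Txndc12, Txndc16 and Txnl4a. The move was taken relative to each gene's own log2 difference, so genes with small differences exceed 1.5 times most easily. The 12 are therefore not a measure of stability apart from the size of the difference. The log2 differences of Glrx3, Txnl1, Sag and Vimp were -0.11, -0.09, -0.002 and -0.078 with array weights, and that of Txndc15 was 0.010, 0.011 and 0.027 with sum, median-ratio and quantile scaling. Leaving out each library gave -0.10 to 0.15 for Gclc, -0.071 to 0.49 for Glrx3, -0.18 to 0.82 for Glrx5, -0.30 to 0.12 for Gstz1, -0.24 to 0.07 for Prdx1, -0.10 to 0.34 for Txn2, -0.14 to 0.10 for Txndc15, -0.26 to 0.001 for Txndc5 and -0.12 to 0.15 for Txnl1. The ranges were -0.36 to 0.035 for Nxnl2, -0.48 to 0.093 for Gngt2, -0.10 to 0.26 for Sag, -0.31 to 0.071 for Nefl, -0.17 to 0.48 for Vimp, -0.37 to 0.016 for Selk, -0.18 to 0.07 for Selenof and -0.059 to 0.17 for Arntl. The cause was not tested. Depth is unknown, so no detection limit can be given for genes near the floor, and 3 libraries a group limit the precision.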
